A study of Mus musculus and Ictidomys tridecemlineatus with 36 samples.

Results

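The genes described here are 10 transcription factors of the inner retina, *Pou4f1*, *Pou4f2*, *Isl1*, *Eomes*, *Lhx1*, *Lhx9*, *Prox1*, *Tfap2a*, *Tfap2b* and *Barhl2*, out of 21938 protein-coding genes annotated on the mouse chromosomes. They were chosen by name as factors of retinal ganglion, horizontal and amacrine cells, to set beside the genes of photoreceptors. No measured value was a criterion, but earlier results of these data were known when the genes and the comparison lists were chosen. For each gene, peaks were collected within 1 kb of any annotated transcription start site (TSS) and across the gene body with 20 kb on each side, here called its territory. Peaks came from CUT&RUN, in which a nuclease tethered to an antibody releases the DNA around a histone mark or a bound protein. The samples were pooled whole retinas of postnatal day 2 (P2) mice with no stated genetic change or treatment, 3 mice to a replicate and 2 biological replicates. They gave 20 libraries, of which 2 each were for H3K4me3, H3K27ac, H3K4me1 and the IgG control, 4 for Neurod1 and 8 for Otx2, the last split between 2 antibodies. The study compared these with retinas of the 13-lined ground squirrel at P5, whose lists are not used here.

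Ganglion, horizontal and amacrine cells arise from the progenitors that also make rods and cones, and their differentiation is run by POU, LIM-homeodomain, AP-2, T-box and other homeobox factors. H3K4me3 marks promoters, H3K27ac marks active promoters and enhancers, and H3K4me1 covers enhancers whether or not they are active, so that H3K4me1 without the other marks is read as a poised state. Otx2 and Neurod1 are photoreceptor-promoting factors, the first a homeodomain protein that prefers TAATCC and the second a bHLH protein that prefers CAGATG.

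Each list is a single call over all libraries of a target, so a peak has 1 fold enrichment over IgG with no spread between replicates, and the depth of the libraries is unknown. The lists held 14069 H3K4me3, 62930 H3K27ac, 135798 H3K4me1, 29115 Otx2 and 4744 Neurod1 peaks, with median fold enrichments of 13.5, 3.36, 4.25, 3.54 and 3.78. In whole retina, fewer cells of a type and less of a mark per cell cannot be told apart. RNA was not measured in these libraries, so the cell types behind the gene names could not be checked here, and no difference between gene lists below was tested.

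The 10 genes all carried H3K4me1 at their starts, and H3K27ac was called at 1 of them. Within 1 kb of a TSS, all 10 had an H3K4me1 peak, against 63.6% of all genes, and 8 had an H3K4me3 peak, against 56.0%. Counted at the 5′ end of the gene alone, 6 of 10 had H3K4me3, against 52.7% of all genes. An H3K27ac peak was present only at *Prox1*, 1 of 10, against 22.6% of all genes. With only 10 genes, that count is little below the share of all genes. Otx2 peaks lay at 5 of 10, against 51.0%, a share near that of any gene, and Neurod1 peaks at 0 of 10, against 5.76%. The combination of H3K4me1 with no H3K27ac at a start was found at 9 of 10, against 42.2% of all genes. The *Prox1* H3K27ac peak was near the calling threshold, with a −log10 q of 1.88, and at a −log10 q limit of 5 no gene kept H3K27ac at a TSS, 0 of 10, and 3 of 10 kept Otx2.

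Across the territories H3K4me1 was again found at 10 genes and H3K27ac at 1, here further below the share of all genes. H3K4me1 peaks were in 10 of 10 territories (81.2% of all genes), H3K4me3 in 9 (66.6%), Otx2 in 10 (69.9%), H3K27ac in 1 (53.7%) and Neurod1 in 0 (19.4%). Peak numbers over the 10 territories were 84 for H3K4me1, 33 for Otx2, 21 for H3K4me3 and 9 for H3K27ac, and all 9 H3K27ac peaks were at *Prox1*. H3K4me1 with no H3K27ac anywhere in the territory was found for 9 of 10 genes, against 28.3% of all genes. With 50 kb on each side, 3 territories held H3K27ac and 1 held Neurod1, and with the gene body alone Otx2 was in 6.

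The 10 photoreceptor transcription factors set beside them (*Otx2*, *Crx*, *Nrl*, *Nr2e3*, *Neurod1*, *Prdm1*, *Rorb*, *Rxrg*, *Thrb* and *Mef2d*) all had H3K4me3, H3K4me1 and Otx2 at a TSS, 9 had H3K27ac and 5 had Neurod1. In their territories H3K27ac was found for 10 of 10 and Neurod1 for 9 of 10. Those territories were longer, 1179 kb in total beside 571 kb for the 10 inner retina factors. A longer territory has more room for a peak. A further 18 inner retina factors had H3K27ac at a TSS in 3 cases and Neurod1 in 3. In their territories, 1939 kb in total, H3K27ac was found for 6 and Neurod1 for 11, so that list as a whole was not without Neurod1. Few genes of any kind had Neurod1 peaks, 5.76% at a TSS and 19.4% in the territory. With only 10 genes, a count of 0 is little below these shares. Among 11 paralogues of the 10 genes, 2 had H3K27ac and 0 had Neurod1 at a TSS, and in their territories 2 had H3K27ac and 3 had Neurod1. H3K4me1 without H3K27ac at a TSS was not particular to the 10 genes. Of the 18 further inner retina factors, 12 had it together with H3K4me3 and 3 had it alone. Of the 11 paralogues, 5 had it together with H3K4me3 and 3 had it alone.

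The contrast was less sharp with 11 genes that work in mature photoreceptors, mostly in phototransduction. At a TSS, 5 of 11 had H3K4me3, 2 had H3K27ac, 8 had H3K4me1, 6 had Otx2 and 1 had Neurod1. The median of their highest H3K4me3 fold at a TSS was 5.19, below the 10.1 of the 10 inner retina factors. In their territories 8 of 11 had H3K27ac and 5 had Neurod1.

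**Figure D1:**
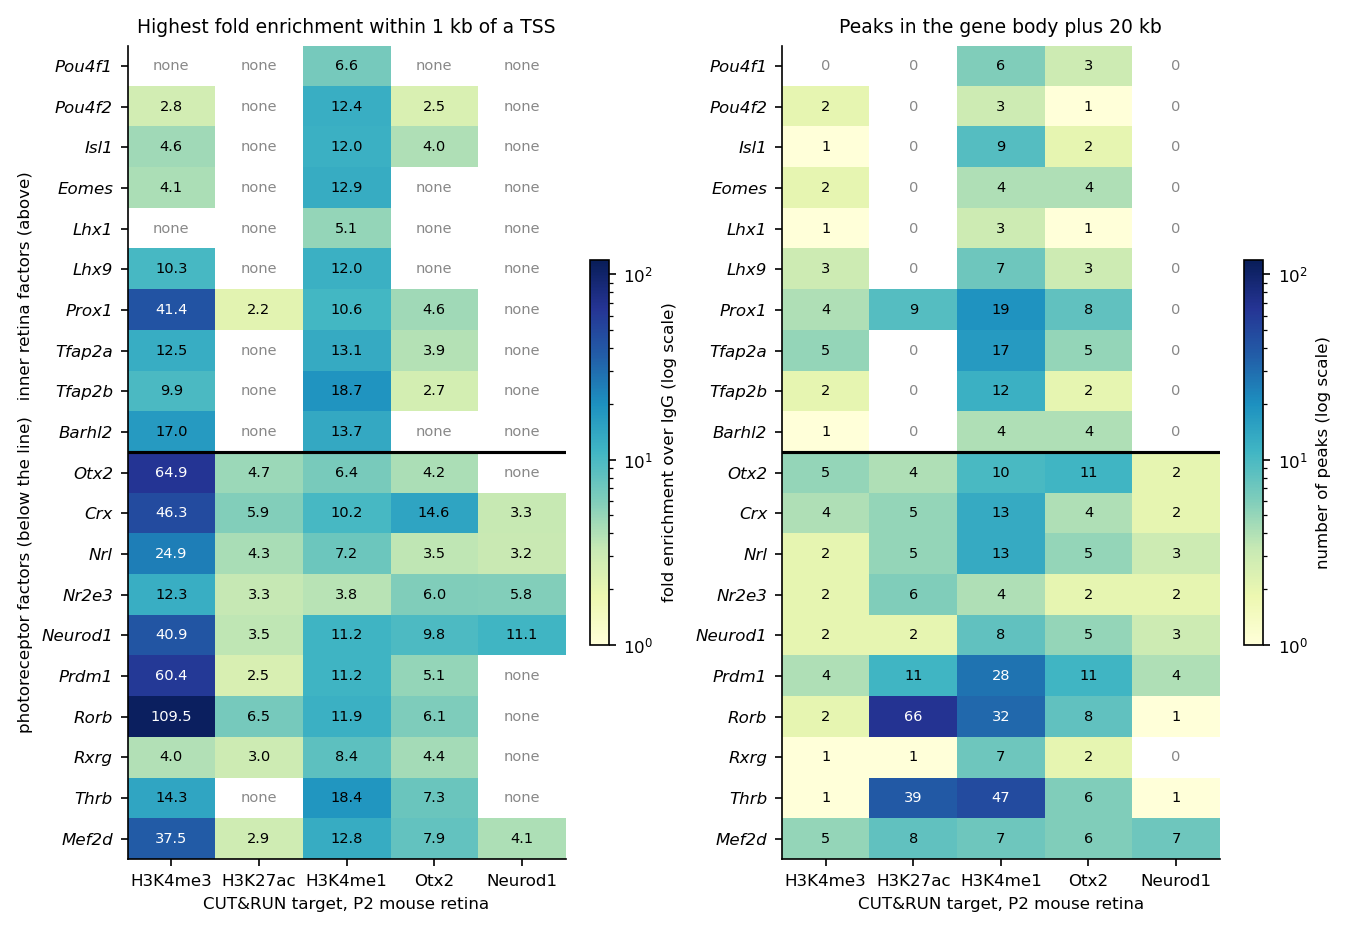
Each row is a gene and each column a CUT&RUN target in P2 mouse retina, with the highest fold enrichment over IgG within 1 kb of a TSS on the left and the number of peaks in the gene body plus 20 kb on the right, colours on log scales. Above the line, the H3K27ac column is empty except at *Prox1* and the Neurod1 column is empty, while H3K4me1 is filled in all 10 rows.

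By the histone marks at their starts, the genes fell into 3 patterns. *Prox1* had all 3 marks, which 19.9% of all genes had. *Pou4f2*, *Isl1*, *Eomes*, *Lhx9*, *Tfap2a*, *Tfap2b* and *Barhl2*, 7 genes, had H3K4me3 and H3K4me1 without H3K27ac, as 31.6% of all genes did. *Pou4f1* and *Lhx1* had H3K4me1 alone, as 10.6% of all genes did. None of the 10 lacked all marks, the pattern of another 31.6% of genes. Of the 10 photoreceptor factors, 9 had all 3 marks and 1, *Thrb*, lacked only H3K27ac.

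H3K4me3 at these genes was mostly low in fold enrichment, and wide at some of them. Among the 8 genes with a TSS peak, the highest fold ran from 2.78 to 41.4 with a median of 10.1, and 7 of the 8 were below the 17.5 that was the median of all genes with such a peak. The photoreceptor factors had a median of 39.2. Against this, the *Tfap2b* peak was 6694 bp wide, and 0.320% of all H3K4me3 peaks were wider. The *Barhl2* peak was 5659 bp wide, and 0.618% were wider. The median peak of the list measured 1338 bp, and the highest TSS peak was wider than that at 5 of the 8 genes. All 21 H3K4me3 peaks of the territories, the small ones included, had a median width of 457 bp.

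H3K4me1 was high as well as wide. The highest fold at a TSS ran from 5.08 at *Lhx1* to 18.7 at *Tfap2b* with a median of 12.2, and 9 of 10 genes exceeded the 5.64 that was the median of all genes with a peak. Of the 84 H3K4me1 peaks, 9 were wider than 5 kb, against 2.90% of the whole list. H3K4me1 peaks covered a median of 27.4% of the 10 territories, from 8.83% at *Lhx1* to 53.2% at *Barhl2*, beside 28.3% for the photoreceptor factors and 5.95% for all genes. The 18 further inner retina factors had a median cover of 24.0% and the 11 paralogues 11.2%. The 10 inner retina factors and the photoreceptor factors were thus close in how much H3K4me1 they carried and far apart in H3K27ac.

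**Figure D2:**
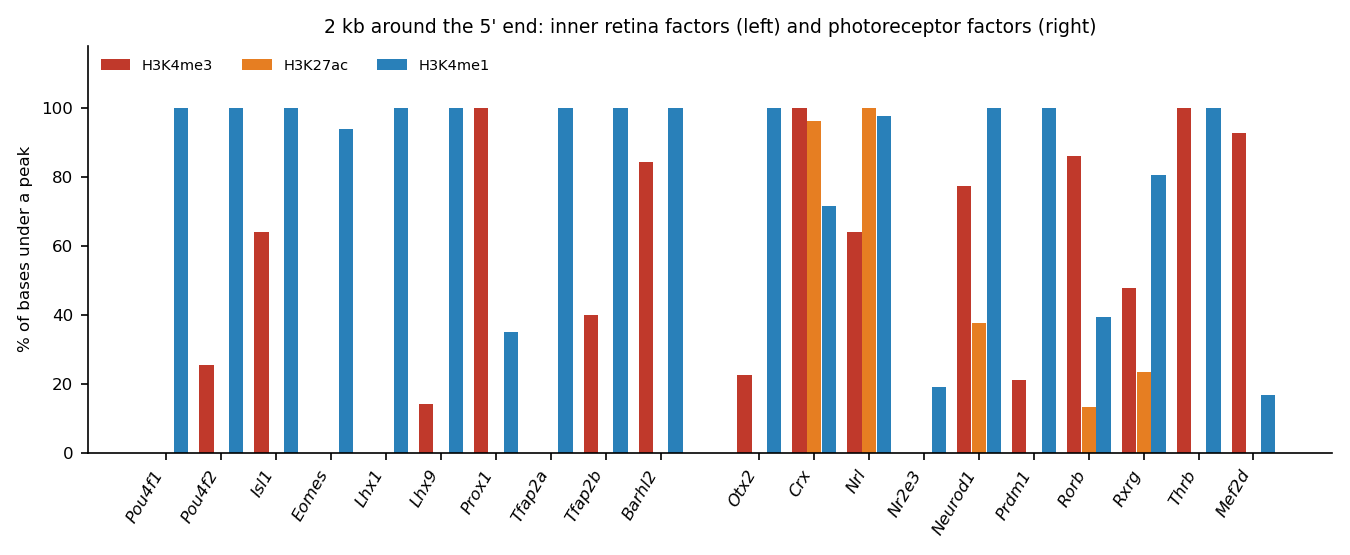
Bars give the percent of bases under an H3K4me3, H3K27ac or H3K4me1 peak in the 2 kb centred on the 5′ end of each gene. H3K4me1 covered the whole window at 8 of the 10 inner retina factors, 93.8% at *Eomes* and 34.9% at *Prox1*, where H3K4me3 covered 100%. No bar for H3K27ac rises on the left, and none at *Otx2*, *Nr2e3*, *Prdm1*, *Thrb* and *Mef2d* on the right. Of all genes, 15.8% had any H3K27ac in this window.

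In the 2 kb around the 5′ end of the gene, H3K4me1 covered every base at 8 of 10 genes, as it did at 3.92% of all genes, whose median cover was 13.7%. H3K4me3 in the same window covered 100% at *Prox1*, 84.4% at *Barhl2*, 63.9% at *Isl1*, 39.8% at *Tfap2b*, 25.5% at *Pou4f2* and 14.1% at *Lhx9*, and 0% at the other 4. *Tfap2a* and *Eomes* had their H3K4me3 at starts inside the gene, outside this window.

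The bases upstream of some of the starts are rich in CG dinucleotides, a feature that the choice of genes did not use. The RefSeq promoter table (GRCm38.p6) held all 10 genes, with 12 promoters. The 250 bases before the RefSeq start are printed for the genes without H3K4me3 (*Pou4f1*, *Lhx1*) and for the 2 with the highest H3K4me3 (*Barhl2*, *Prox1*), with every CG in capitals. They read 5′ to 3′ along the minus strand, from chr14:104468000-104468249, chr11:84525535-84525784, chr5:106458167-106458416 and chr1:190170828-190171077.
Pou4f1 promoter: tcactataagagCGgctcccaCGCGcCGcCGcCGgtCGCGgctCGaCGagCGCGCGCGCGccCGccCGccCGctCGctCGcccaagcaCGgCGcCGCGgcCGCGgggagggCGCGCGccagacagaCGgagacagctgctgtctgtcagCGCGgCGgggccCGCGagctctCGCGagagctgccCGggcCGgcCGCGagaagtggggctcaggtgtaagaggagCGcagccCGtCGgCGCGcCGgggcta
Lhx1 promoter: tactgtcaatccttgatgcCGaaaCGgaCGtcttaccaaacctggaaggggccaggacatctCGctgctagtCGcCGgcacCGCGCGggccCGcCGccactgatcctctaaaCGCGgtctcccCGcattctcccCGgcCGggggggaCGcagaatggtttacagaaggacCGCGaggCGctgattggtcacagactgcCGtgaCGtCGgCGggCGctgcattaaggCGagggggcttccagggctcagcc
Barhl2 promoter: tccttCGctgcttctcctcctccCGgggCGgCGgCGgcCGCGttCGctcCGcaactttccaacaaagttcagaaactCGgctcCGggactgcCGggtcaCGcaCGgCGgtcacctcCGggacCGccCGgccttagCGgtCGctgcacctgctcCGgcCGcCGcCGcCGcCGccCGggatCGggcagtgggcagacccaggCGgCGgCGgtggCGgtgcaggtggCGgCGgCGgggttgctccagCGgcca
Prox1 promoter: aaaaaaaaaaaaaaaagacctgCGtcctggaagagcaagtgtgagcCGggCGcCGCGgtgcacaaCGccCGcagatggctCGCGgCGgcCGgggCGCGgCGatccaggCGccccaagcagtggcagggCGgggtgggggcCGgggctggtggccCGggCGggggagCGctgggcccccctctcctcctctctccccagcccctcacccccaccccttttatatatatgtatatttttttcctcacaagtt

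CG occurred 47 times in the *Pou4f1* sequence, and 0.186% of the 32851 promoters in the table held more. It occurred 26 times at *Lhx1* (8.56% held more), 36 times at *Barhl2* (2.20%) and 20 times at *Prox1* (16.3%), where the median of all promoters was 6. CG reads the same on both strands. Within 500 bp on each side of the 5′ end, the ratio of observed to expected CG had a median of 0.750 over the 10 genes and 0.552 over 21911 genes with sequence. The median was 0.640 for the photoreceptor factors, 0.643 for the 18 further inner retina factors, 0.689 for the paralogues and 0.233 for the photoreceptor genes. Among the 10 genes the ratio was 1.02 at *Pou4f1* and 1.07 at *Barhl2*, which 1.28% and 0.388% of genes exceeded. It was lowest at *Lhx9*, 0.529, below the median of all genes. The CG-rich *Pou4f1* and *Lhx1* starts thus had no H3K4me3 peak in these lists, while *Barhl2*, the richest of the 10 by this ratio, had a wide one.

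**Figure D3:**
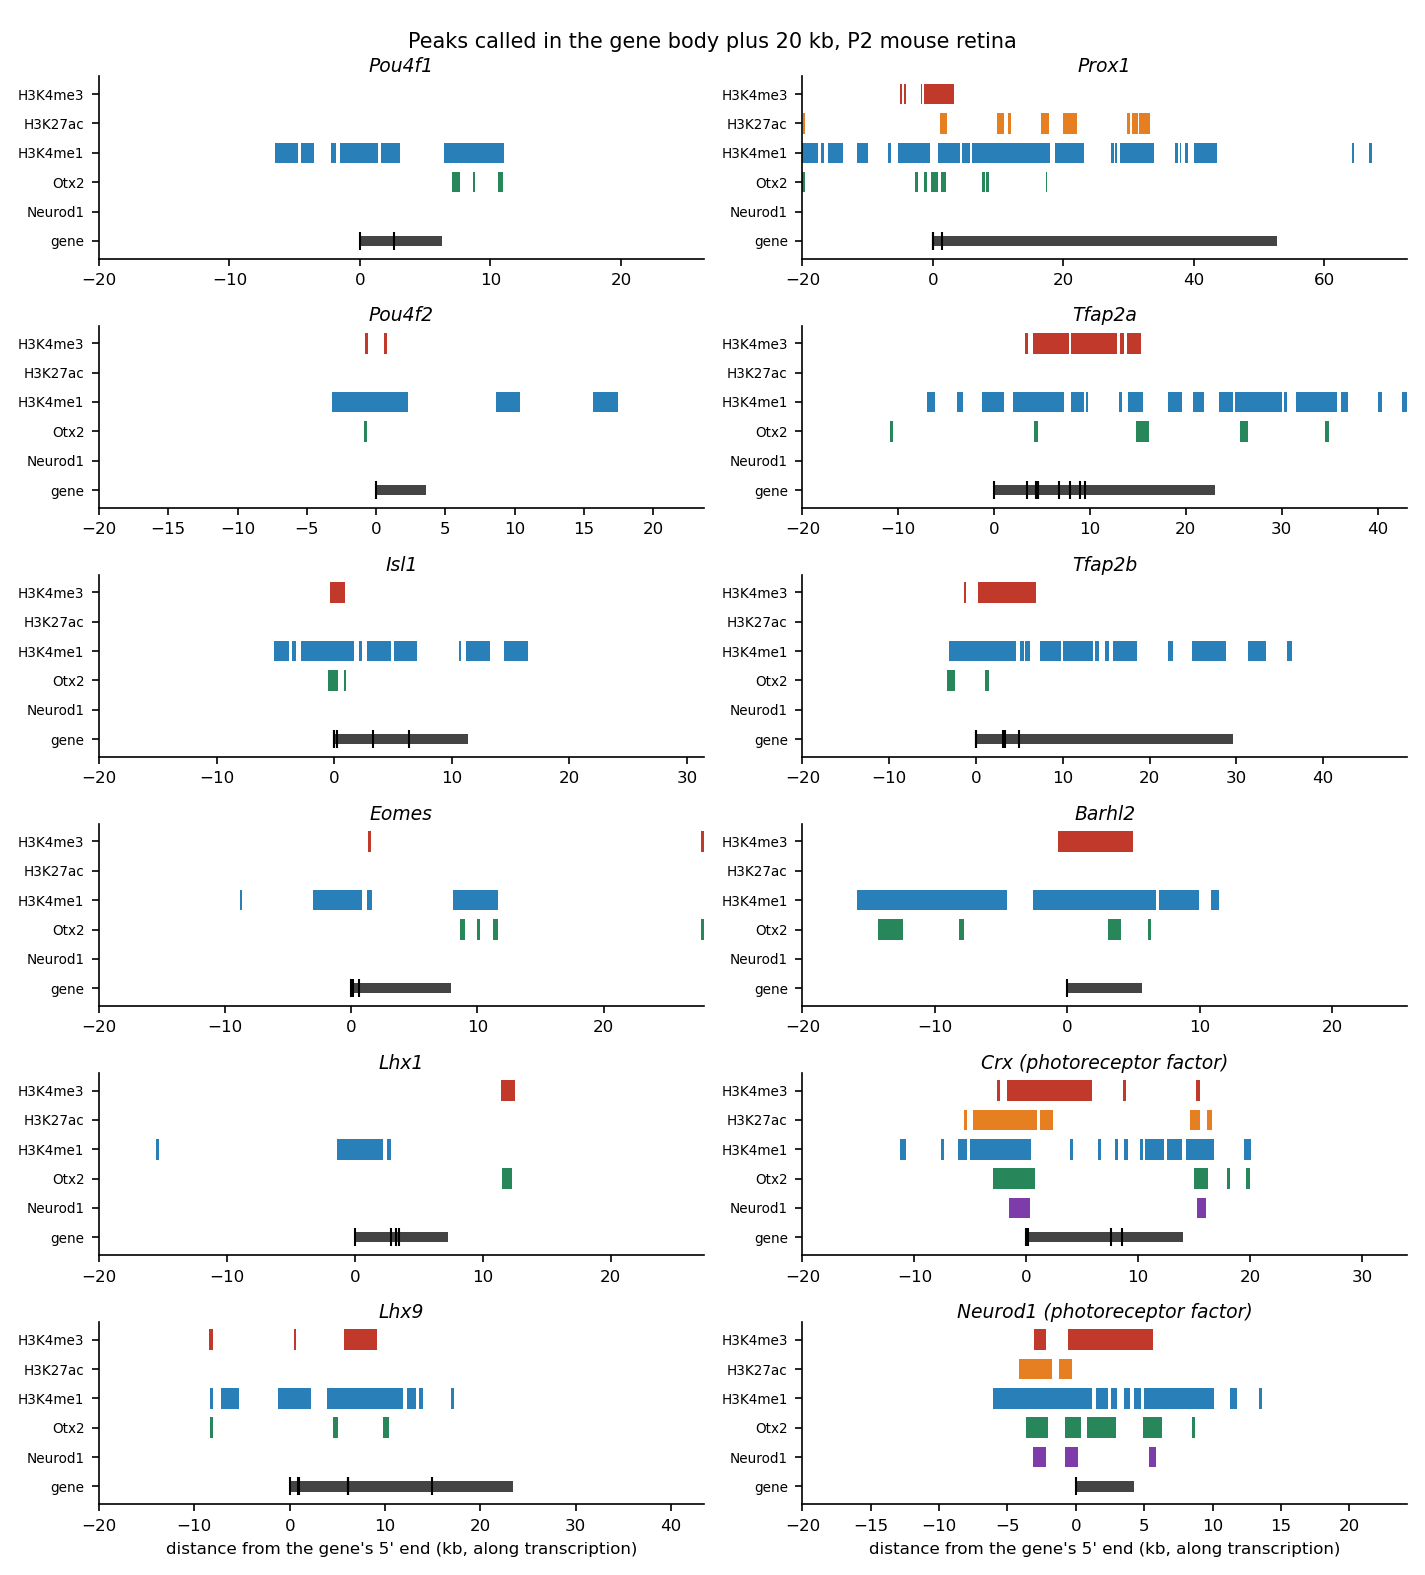
Peaks of the 5 lists are drawn as bars along each gene body plus 20 kb, with the distance from the 5′ end in kb along transcription, the gene as a dark bar and annotated starts as ticks. The 10 inner retina factors are followed by the photoreceptor factors *Crx* and *Neurod1*, which have H3K27ac and Neurod1 bars at their starts where the inner retina factors, other than *Prox1* for H3K27ac, have none.

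*Pou4f1* (ENSMUSG00000048349, chr14:104461676-104467999, minus strand) encodes Brn3a, a POU factor of ganglion cells. It had no H3K4me3 peak in its territory, and the nearest lay 53.9 kb from a TSS. Its 6 H3K4me1 peaks reached 6.61-fold at the TSS and 10.9-fold at a peak whose summit was 5165 bp upstream. A second, 10.6-fold and 4577 bp wide, lay past the end of the gene at the start of the noncoding gene *D130079A08Rik*. All 3 Otx2 peaks of the territory were there, at 4.02-, 3.60- and 3.10-fold, and each was on H3K4me1 without H3K4me3 or H3K27ac.

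*Pou4f2* (ENSMUSG00000031688, chr8:78433010-78436645, minus strand) encodes Brn3b, which most ganglion cells need to differentiate. Its 2 H3K4me3 peaks were among the lowest in the list, 2.78-fold over 282 bp in an intron and 2.53-fold over 229 bp upstream, and 98.0% and 99.2% of H3K4me3 peaks were higher. H3K4me1 at the same place reached 12.4-fold over 5528 bp. The single Otx2 peak, 2.47-fold, had its summit 732 bp upstream of the TSS.

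*Isl1* (ENSMUSG00000042258, chr13:116298281-116309689, minus strand) encodes a LIM-homeodomain factor that works with Brn3b in ganglion cells and is also used by cholinergic amacrine and bipolar cells. An H3K4me3 peak of 4.56-fold spanned 1279 bp at its start. Of 9 H3K4me1 peaks, the highest, 12.0-fold over 4471 bp, covered the same start, and the next, 10.9-fold, lay in an intron. Both Otx2 peaks were at the TSS. One, 4.01-fold, had its summit in the UTR 117 bp from a TSS and the other, 2.58-fold, in an intron.

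*Eomes* (ENSMUSG00000032446, chr9:118478212-118486132, plus strand) encodes the T-box factor Tbr2, found in ganglion cells that include the melanopsin-expressing ones. Its own H3K4me3 peak was 4.15-fold over 235 bp in an intron, and the 23.8-fold peak at the edge of its territory lay at the start of the neighbouring gene *Golga4*. H3K4me1 upstream of the start reached 12.9-fold over 3884 bp. Of 4 Otx2 peaks, 3 (2.35-, 3.11- and 3.64-fold) were past the gene's end at the noncoding *Gm33460*, on H3K4me1 alone, and 1 (2.76-fold) was at *Golga4*.

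*Lhx1* (ENSMUSG00000018698, chr11:84518284-84525535, minus strand) encodes a LIM-homeodomain factor of horizontal cells. It was the most sparsely marked of the 10 in H3K4me1, with 3 peaks of which the highest, 5.08-fold over 3595 bp, covered its TSS and a start of the antisense noncoding gene *Lhx1os*. Peaks carry no strand, so these starts cannot be separated. The only H3K4me3 peak, 9.47-fold, and the only Otx2 peak, 2.75-fold, in the territory were at the start of *Aatf*, the next gene. Without peaks at the start of another protein-coding gene, 8 of 10 territories in place of 9 held H3K4me3 and 9 in place of 10 held Otx2.

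*Prox1* (ENSMUSG00000010175, chr1:190118035-190170714, minus strand) encodes a homeobox factor required for horizontal cells and also used by amacrine and progenitor cells. It was the only one of the 10 with H3K27ac. Its TSS carried H3K4me3 at 41.4-fold over 4520 bp, which 7.62% of genes with a TSS peak exceeded, and H3K27ac there was 2.19-fold, which 97.9% of genes with such a peak exceeded. The other 8 H3K27ac peaks were higher, from 2.64- to 5.48-fold. Of the 9, 7 lay in introns of *Prox1*, the highest 31055 bp from the nearest TSS (chr1:190137464-190139089). One of 2.96-fold lay 19908 bp upstream, in an intron of the antisense gene *Prox1os*, whose start and that of *Gm28172* share the *Prox1* promoter.

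H3K4me1 at *Prox1* formed 19 peaks over 48.0% of the territory. The highest, 20.3-fold over 11949 bp in the first part of the gene (chr1:190152767-190164715), held 3 of the intronic H3K27ac peaks. That peak was the widest of the 84, and 0.193% of the whole H3K4me1 list was wider. A second, 17.8-fold over 5179 bp, covered the 5.48-fold H3K27ac peak.

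*Lhx9* (ENSMUSG00000019230, chr1:138825186-138848577, minus strand) encodes a LIM-homeodomain factor of amacrine cell subsets. Its main H3K4me3 peak, 10.3-fold over 3467 bp, was at an internal start, and the one by the 5′ end was 2.58-fold over 283 bp. H3K4me1 over the internal start was 12.0-fold and 8010 bp wide. A 10.6-fold H3K4me3 peak and the highest Otx2 peak of the territory, 5.98-fold, coincided at the neighbouring gene *2310009B15Rik*, and the other 2 Otx2 peaks, 3.56- and 2.27-fold, were inside *Lhx9* and overlapped H3K4me1 alone.

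*Tfap2a* (ENSMUSG00000021359, chr13:40715302-40738376, minus strand) and *Tfap2b* (ENSMUSG00000025927, chr1:19208914-19238576, plus strand) encode AP-2 factors that act together in amacrine and horizontal cells. *Tfap2a* had the largest cover by H3K4me3, 17.2% of its territory, in 5 peaks that included one of 12.5-fold over 3768 bp and one of 9.07-fold over 4860 bp. *Tfap2b* had 1 H3K4me3 peak of 9.94-fold at its starts and another of 3.33-fold upstream. H3K4me1 made 17 peaks at *Tfap2a*, the highest of them, 15.0-fold, 34217 bp past a TSS and outside the gene, and 12 peaks at *Tfap2b*, the highest 18.7-fold over 7784 bp at its starts. Otx2 peaks numbered 5 and 2, from 3.44- to 4.11-fold at *Tfap2a* and at 4.17- and 2.72-fold at *Tfap2b*. One *Tfap2a* Otx2 peak of 3.88-fold, 10791 bp upstream, was the only one of the 33 on no histone peak.

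*Barhl2* (ENSMUSG00000034384, chr5:106452523-106458166, minus strand) encodes a homeobox factor of amacrine and ganglion cells. A single H3K4me3 peak of 17.0-fold covered the start and most of this 5644 bp gene. H3K4me1 formed 2 very wide peaks, 13.7-fold over 9339 bp on the gene and 12.6-fold over 11331 bp upstream, around the noncoding gene *Gm26872*. Its H3K4me1 cover of 53.2% was exceeded by 0.328% of all genes. Otx2 peaks numbered 4, at 6.97-, 4.80-, 2.47- and 2.40-fold.

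**Figure D4:**
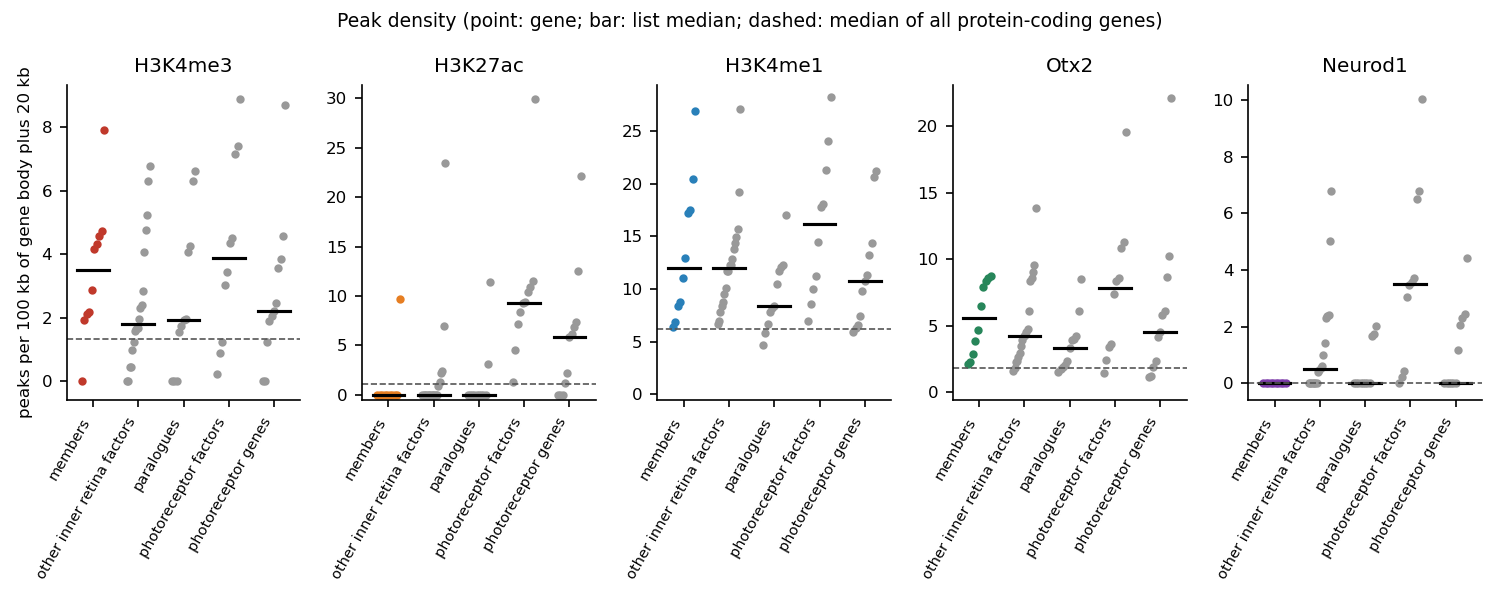
Peaks per 100 kb of gene body plus 20 kb are plotted for each gene of 5 lists (points), with list medians (bars) and the median of all protein-coding genes (dashed). For H3K27ac 9 of the 10 inner retina factors are at 0 and *Prox1* is at 9.71, while in H3K4me1 and Otx2 all 10 are above the dashed lines.

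Per 100 kb of territory, which allows for gene length, the 10 genes had a median of 12.0 H3K4me1 peaks, beside 16.2 for the photoreceptor factors and 6.16 for all genes. For Otx2 the medians were 5.60, 7.89 and 1.86. For H3K27ac they were 0, 9.29 and 1.06, and for Neurod1 0, 3.51 and 0. The 18 further inner retina factors and the 11 paralogues also had H3K27ac medians of 0. Their medians were 12.0 and 8.42 for H3K4me1 and 4.28 and 3.32 for Otx2. All 10 genes were above the median gene in H3K4me1 and in Otx2 density, some of them narrowly. *Lhx1* had 6.35 for H3K4me1 and 2.12 for Otx2, the latter from 1 peak, at the start of *Aatf*. *Pou4f2* had 2.29 for Otx2, also from 1 peak. In a short territory 1 Otx2 peak is enough to pass the median.

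Classed by the marks under them, 63 of the 84 H3K4me1 peaks (75.0%) lay on neither H3K4me3 nor H3K27ac and are called poised enhancers here. Some of the 63 lay at a TSS of the gene itself, as at *Pou4f1* and *Lhx1*, so the class is not limited to distal sites. In the whole list the share was 69.3%, and at the photoreceptor factors 58.6%. Active enhancers, with H3K27ac and no H3K4me3, made up 4 of 84 (4.76%), against 18.7% of the whole list and 20.1% at the photoreceptor factors. All 4 were at *Prox1*.

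The Otx2 peaks were classed by the histone peaks that they overlapped themselves. Of 33, 17 (51.5%) overlapped H3K4me1 alone, 13 (39.4%) H3K4me3, 2 (6.06%) H3K27ac without H3K4me3 and 1 (3.03%) no histone peak, beside 26.9%, 43.3%, 22.6% and 7.20% of the whole Otx2 list. Of the 17, 10 lay on H3K4me1 peaks that were themselves poised enhancers, and 7 on H3K4me1 peaks that met H3K4me3 or H3K27ac elsewhere along their length. At the photoreceptor factors, 12 of 60 Otx2 peaks overlapped H3K4me1 alone and 10 overlapped H3K27ac without H3K4me3. The fold enrichment of the 33 peaks was ordinary, with a median of 3.56 beside the list's 3.54. At a TSS, 8 Otx2 peaks lay at 5 of the genes, the highest for each gene 4.63-fold at *Prox1*, 4.01 at *Isl1*, 3.88 at *Tfap2a*, 2.72 at *Tfap2b* and 2.47 at *Pou4f2*. *Prox1* and *Isl1* had others of 3.23- and 2.17-fold and of 2.58-fold. Their median over genes, 3.88, was near the 3.99 of all genes with a TSS peak and below the 6.03 of the photoreceptor factors. Of the 33, 12 lay within 1 kb of a start of some other gene, mostly noncoding, and 3 of these at a protein-coding one.

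The 3 highest Otx2 peaks away from any protein-coding start were 7.21-fold at *Prox1*, 19924 bp upstream on H3K27ac, 6.97-fold at *Barhl2*, 13600 bp upstream on a poised enhancer, and 6.22-fold in an intron of *Prox1*, inside the 11949 bp H3K4me1 peak but on none of its H3K27ac peaks. In the list, 7.79%, 8.59% and 11.9% of peaks were higher. The *Barhl2* peak lay within 1 kb of a start of the noncoding gene *Gm26872*. To show a high peak without the Otx2 motif beside a lower one with it, 299 bases around the summit are printed for the *Barhl2* peak (chr5:106471617-106471915) and for the *Tfap2b* TSS peak (chr1:19209924-19210222, in an intron), plus strand of GRCm38.p6. Capitals mark TAATCC or its reverse complement.
Barhl2 Otx2 peak: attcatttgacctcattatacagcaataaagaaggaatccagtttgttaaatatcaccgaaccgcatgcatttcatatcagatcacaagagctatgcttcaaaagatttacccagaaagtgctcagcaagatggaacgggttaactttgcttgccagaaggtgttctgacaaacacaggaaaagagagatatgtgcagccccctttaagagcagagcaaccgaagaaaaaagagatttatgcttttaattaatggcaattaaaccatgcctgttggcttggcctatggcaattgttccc
Tfap2b Otx2 peak: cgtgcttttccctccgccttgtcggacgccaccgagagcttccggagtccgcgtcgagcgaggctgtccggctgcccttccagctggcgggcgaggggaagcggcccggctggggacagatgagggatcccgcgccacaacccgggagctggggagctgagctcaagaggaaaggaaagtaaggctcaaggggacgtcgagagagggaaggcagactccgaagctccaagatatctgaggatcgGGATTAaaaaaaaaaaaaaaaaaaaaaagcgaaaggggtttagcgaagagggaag

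The motif was found once in the *Tfap2b* sequence and not in the *Barhl2* one. TAATCC, searched on both strands, was in 6 of the 33 Otx2 peaks (18.2%, 95% Wilson interval 8.61 to 34.4, counting error only), against 28.6% of all Otx2 peaks. Those 6 peaks were at *Isl1* (4.01-fold), *Eomes* (2.35), *Lhx9* (2.27), *Tfap2b* (2.72) and *Barhl2* (4.80 and 2.40). The peaks of the 10 genes were shorter, with a median width of 421 bp against 561 bp, and a longer peak has more room for a match. Within 150 bp of the summit, the motif was in 4 of 33 (12.1%) against 18.3%. The share in whole peaks of the list lay inside the Wilson interval. That interval treats the 33 peaks as independent, though 8 of them were at *Prox1*, and a difference was not tested. The shorter TAATC, a motif added once the values had been seen, was in 51.5% of the 33 whole peaks and 50.2% of all.

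**Figure D5:**
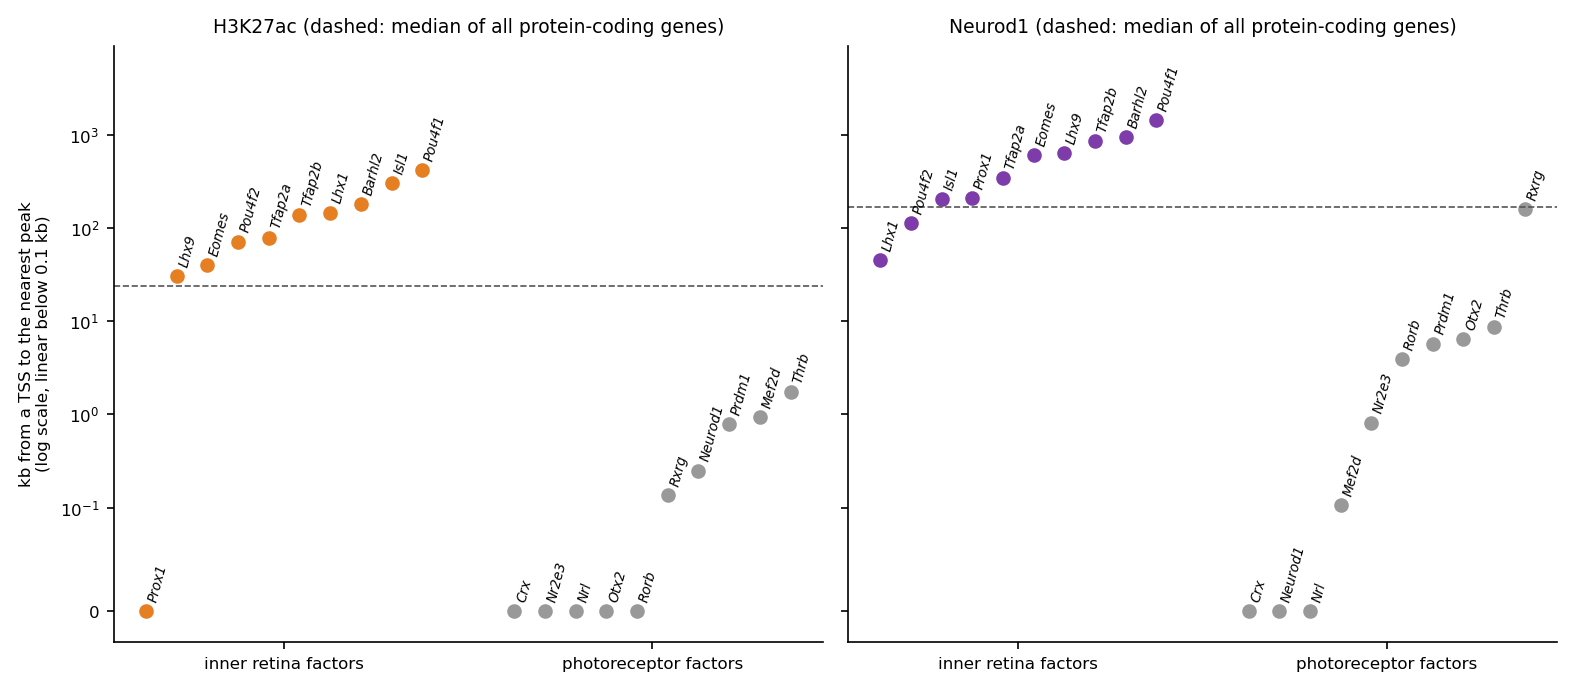
The distance in kb from a TSS to the nearest H3K27ac peak (left) and Neurod1 peak (right) is plotted on a log scale, linear below 0.1 kb, for the 10 inner retina factors and the 10 photoreceptor factors, with the median of all protein-coding genes dashed. Other than *Prox1* at 0, the inner retina factors lie between 30.6 and 419 kb from H3K27ac, and every photoreceptor factor lies within 1.72 kb. With no H3K27ac in the territory, those inner retina factors had to lie more than 20 kb away, close to the dashed 23.8 kb.

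How far the missing marks were from the genes was measured as well. The 9 genes without H3K27ac in the territory had their nearest peak at 30.6 kb (*Lhx9*), 39.7 (*Eomes*), 71.2 (*Pou4f2*), 78.4 (*Tfap2a*), 137 (*Tfap2b*), 146 (*Lhx1*), 181 (*Barhl2*), 301 (*Isl1*) and 419 kb (*Pou4f1*) from a TSS. With no peak in the territory, each had to be more than 20 kb away. Lying outside the 0 to 1.72 kb of the photoreceptor factors therefore adds nothing to the territory counts. For the same reason, passing the 23.8 kb of the median gene, as all 9 did, was nearly fixed in advance. *Prox1*, at 0 kb, lay within the range of the photoreceptor factors. For Neurod1 the distances ran from 44.8 kb at *Lhx1* to 1431 kb at *Pou4f1* with a median of 471 kb, beside 166 kb for all genes and 2.36 kb for the photoreceptor factors. *Lhx1* and *Pou4f2* (113 kb) were nearer to a Neurod1 peak than the median gene, and the photoreceptor factor *Rxrg*, at 159 kb, was farther than both. In the whole Neurod1 list, CAGATG was in 58.2% of peaks, and there was no peak at the 10 genes in which to look for it.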

How the data were processed

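Peak lists from P2 mouse retina were used, 1 each for H3K4me3, H3K27ac, H3K4me1, Otx2 and Neurod1, as deposited. The authors trimmed reads (cutadapt 3.5, Trim Galore 0.6.4), aligned them with Bowtie2 to GRCm38, filtered them (SAMtools 1.12), removed duplicates and called peaks with macs2 jointly over the libraries of a target against IgG at a q-value of 0.05, leaving out mitochondrial and blacklisted regions. Mouse strain is not given in the sources used here. The fold enrichment of a peak is a ratio to IgG as deposited by the authors, and its −log10 q-value is also theirs. Neither was rescaled, and no list gives replicates or depth. The Otx2 list pools 2 antibodies. H3K27me3 and H3K9me3 were not analysed here.

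Genes and TSSs came from GENCODE M21, and all peaks fell within the GRCm38 chromosome lengths. A peak counted with at least 1 bp shared. Python 3.11.15 (numpy 2.4.6, pandas 2.3.3, matplotlib 3.10.9) was used, and the overlap counts of 2000 simulated intervals differed from those of bedtools 2.31.1 in 0 cases. Peaks were classed as promoter (H3K4me3), active enhancer (H3K27ac without H3K4me3) or poised enhancer (H3K4me1 without either), from what each peak itself overlaps. The study's requirements of accessibility and mean signal were not applied. No test across genes was made, because genes are not replicates of a retina.

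All 10 genes were named, with the highest-fold peak of each list in each territory, every Otx2 or Neurod1 peak at a TSS, the 3 highest distal Otx2 peaks and sequences of at most 6 peaks. Other values of the 10 genes' peaks were named after they were seen. One sequence and 1 gene of the photoreceptor gene list are not reported here. The choice to keep 11 genes of that list followed a look at its values but did not rest on them. The genes and comparison lists were chosen with earlier results of these data known.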

Additional observations from a re-analysis of the deposited data

How the results depend on the processing

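Of 101 values under an alternative setting, 83 stayed within the limit set for a change and 18 moved. At a TSS, H3K27ac fell from 1 gene to 0 at the 5′ end alone, at a −log10 q limit of 5 and at a fold limit of 2.5. Otx2 fell from 5 genes to 3 within 500 bp, at the 5′ end alone and at the same q limit. H3K4me3 fell from 8 genes to 6 within 500 bp and at the 5′ end alone, which stayed within the limit. With the gene body alone, the peaks numbered 13 for H3K4me3, 48 for H3K4me1 and 13 for Otx2, and Otx2 was present at 6 of 10 genes. At that q limit they numbered 13 for H3K4me3, 5 for H3K27ac and 19 for Otx2. With 50 kb on each side, 3 genes had H3K27ac and 1 gene had Neurod1, with 1 peak. With TAATC in place of TAATCC, chosen after seeing the data, 51.5% of Otx2 peaks and 36.4% within 150 bp of the summit held the motif. H3K4me1 at a TSS was counted at 10 genes under every alternative but one, the summit within 1 kb of a TSS, where it was at 8, and in the territory at 10 under each alternative run. No replicate could be left out, since each list is 1 call over all libraries, and no paired analysis was possible because the lists carry no replicate values. Depth is unknown, so a missing peak means only that none was called.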
